A study of Homo sapiens with 27 samples.

Results

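The 10 genes described here encode transcription factors of the epithelial lineage: TP63, the grainyhead-like factors GRHL1, GRHL2 and GRHL3, the Kruppel-like factors KLF4 and KLF5, OVOL1, the ETS factors ELF3 and EHF, and GATA3. They were taken by symbol and make up 10 of the 36536 genes in the deposited table of estimated counts, with 1 row each. Of the 10, 9 passed the filter on low counts that left 15575 genes for testing, and GRHL2 did not. All RNA came from MCF10A, a non-tumorigenic, immortalised line of human mammary epithelial cells, so no other genotype or tissue was compared. Every group had been seeded on collagen in medium with 5% horse serum, 20 ng/ml EGF, hydrocortisone, cholera toxin and insulin, and then kept for 18 h without growth factors. The T0 group was taken at 0 h. The other 8 groups were taken 24 h after vehicle (PBS) or after EGF (epidermal growth factor), OSM (oncostatin M) and TGFB (transforming growth factor beta), each at 10 ng/ml, alone and in all 4 combinations. Each of the 9 groups had 3 libraries of polyadenylated RNA. The labels do not say that the 3 came from separate cultures, so the p-values below measure the spread between these libraries, which may be technical.

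As background, epithelial cells hold their identity through a small set of transcription factors that act on keratin, junction and barrier genes. p63, the product of TP63, maintains basal cells and their attachment to the basement membrane. Grainyhead factors switch on junction and barrier genes, KLF4 and KLF5 act in differentiation and growth, and OVOL1 is a repressor that guards against mesenchymal change. ELF3 and EHF are ETS factors largely restricted to epithelia, and GATA3 specifies luminal cells of the breast. EGF, OSM and TGFB act through the EGF receptor, through gp130 and STAT proteins, and through SMAD proteins, and TGFB is a classical inducer of epithelial-mesenchymal transition.

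The libraries held 30.1 to 52.9 M (mega) counts (median 39.5 M), and the biological coefficient of variation was 7.83%. Basal keratins marked every library: the summed level of 6 epithelial markers ranged from 8391 to 21415 CPM (counts-per-million of the scaled library), with KRT5 at 3313 CPM or more, while EPCAM stayed between 2.72 and 18.6 CPM. The epithelial sum moved with the ligands. It was 14008 to 15832 CPM in T0, 9891 to 11496 in PBS, 8391 to 9297 in EGF and 16881.5 to 17281 in OSM. In TGFB it was 12151.5 to 14063, in EGF+OSM 9810 to 10556 and in EGF+TGFB 9846 to 11487. OSM+TGFB held 19143.5 to 21415 and EGF+OSM+TGFB 14793 to 15765.5. Of 6 fibroblast markers, COL1A1 (3.82 to 118 CPM) and DCN (7.42 to 103 CPM) were present, and COL3A1 was at 0 in 22 libraries and COL1A2 and LUM reached at most 0.453 and 0.316 CPM. The summed fibroblast level moved with the ligands, from 105 to 113 CPM in T0 and 129 to 133 in PBS to 30.8 to 35.9 in EGF, 87.7 to 110.3 in OSM, 204 to 214 in TGFB, 13.0 to 15.3 in EGF+OSM, 76.5 to 96.8 in EGF+TGFB, 176 to 191 in OSM+TGFB and 49.9 to 59.2 in EGF+OSM+TGFB. Of 4 endothelial markers CDH5 was at 0 in 18 libraries and KDR reached 31.3 CPM, and the summed level was 31.3 to 35.3 CPM in PBS and at most 3.66 CPM in the 6 groups with EGF or OSM. Of 4 immune markers CD3E was at 0 in 15 libraries and CD68, which made up nearly all of the summed level, lay between 20.2 and 50.4 CPM. The sum was 26.5 to 28.3 CPM in PBS, 39.6 to 43.0 in OSM, 45.2 to 50.5 in OSM+TGFB and 44.04 to 48.7 in the triple combination. The part of these markers in the results below was not tested. In bulk RNA, fewer cells expressing a gene and less RNA per cell cannot be told apart.

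Across the groups TP63 stood apart from the other factors, which did not all move alike. EGF lowered all 9 tested members, where 38.6% of all tested genes were called lower. OSM lowered 7 of the 9, where 29.8% of all tested genes were called lower, whereas it raised TP63, which encodes the basal factor. TGFB alone raised TP63 and KLF4 and lowered GRHL1, KLF5 and EHF. EGF and OSM together brought OVOL1, ELF3, EHF and GRHL3 to between 0.0476 and 0.0957 of their PBS mean, and TGFB added on top of that pair raised KLF4, GRHL3 and OVOL1 again while it lowered EHF further. Here and below, "raised", "lowered", "rose" and "fell" mean a Benjamini-Hochberg adjusted p under 0.05 over all genes tested, from edgeR's quasi-likelihood test, which is also the source of every adjusted p. Gene coordinates are those of GENCODE v44 on GRCh38. Genes on the opposite strand, such as GRHL3-AS1, OVOL1-AS1, ELF3-AS1 and GATA3-AS1, overlap the spans, introns included, of all members but KLF5 and EHF. Overlap of exons was not tested. Where exons are shared, the reads cannot be told apart, since the use of strand in counting is not given in the sources used here.

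**Figure D1:**
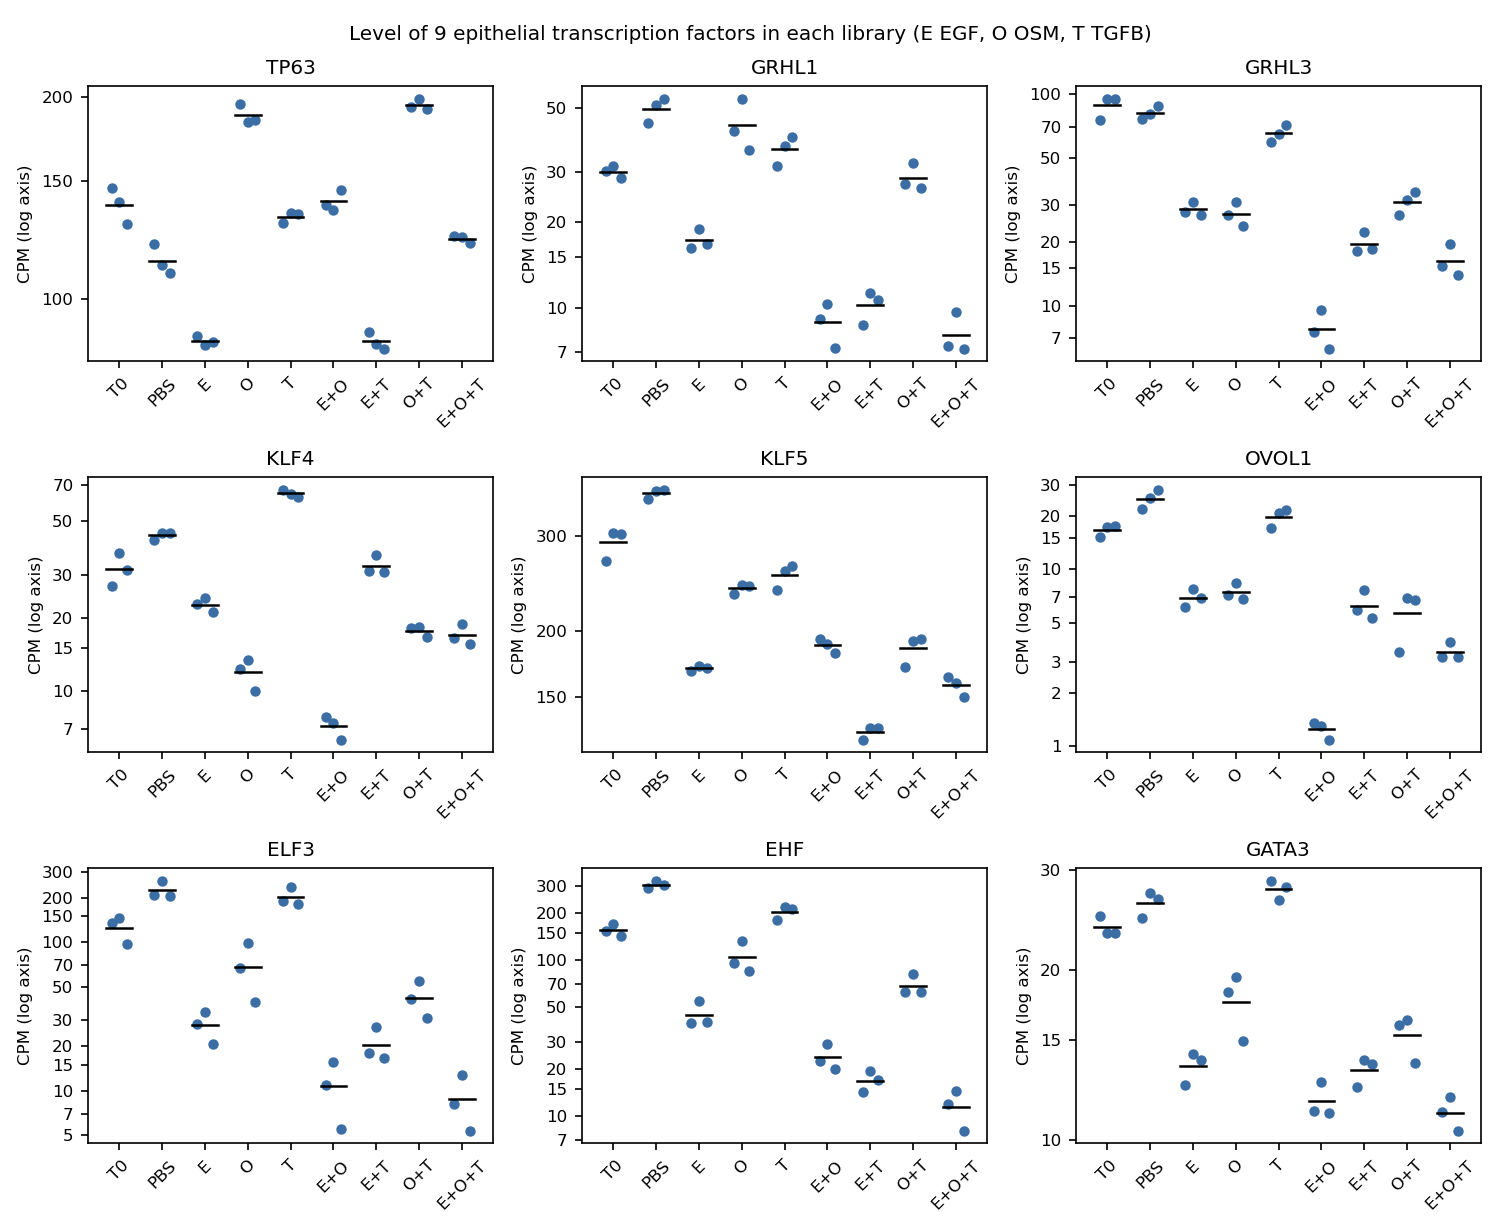
Level of the 9 tested factors in each of the 27 libraries, as CPM on a log axis with its own range in each panel. Points are libraries, bars are group means, and E, O and T stand for EGF, OSM and TGFB. TP63 is highest in OSM and OSM+TGFB, and KLF4, GRHL3 and OVOL1 are lowest in EGF+OSM.

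Promoter sequence is given here for members whose levels moved together or against each other. The RefSeq promoter table for GRCh38.p14 holds 16 entries for 8 of the 10 members. The 5 windows printed are the 250 bases before a start site, 5′ to 3′ on the gene's strand, and none overlaps an annotated exon on that strand (GENCODE v44): both GRHL3 starts (chr1:24319107-24319356 and chr1:24322790-24323039, plus strand) and KLF4 (chr9:107489770-107490019, minus strand), which rose with TGFB on EGF+OSM, the first EHF start (chr11:34624007-34624256, plus strand), which fell there, and TP63 (chr3:189631139-189631388, plus strand), which rose with OSM. Capitals mark matches to 6 short motifs.
GRHL3 first start: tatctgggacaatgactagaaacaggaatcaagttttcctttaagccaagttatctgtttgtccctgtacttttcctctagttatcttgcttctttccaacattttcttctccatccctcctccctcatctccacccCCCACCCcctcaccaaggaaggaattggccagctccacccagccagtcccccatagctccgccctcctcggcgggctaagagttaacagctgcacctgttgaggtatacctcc
GRHL3 second start: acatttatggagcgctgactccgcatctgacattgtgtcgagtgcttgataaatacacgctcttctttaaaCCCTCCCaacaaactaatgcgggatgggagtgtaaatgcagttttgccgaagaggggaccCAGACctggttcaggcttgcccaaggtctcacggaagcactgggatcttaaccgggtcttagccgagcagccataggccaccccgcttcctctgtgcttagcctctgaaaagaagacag
KLF4: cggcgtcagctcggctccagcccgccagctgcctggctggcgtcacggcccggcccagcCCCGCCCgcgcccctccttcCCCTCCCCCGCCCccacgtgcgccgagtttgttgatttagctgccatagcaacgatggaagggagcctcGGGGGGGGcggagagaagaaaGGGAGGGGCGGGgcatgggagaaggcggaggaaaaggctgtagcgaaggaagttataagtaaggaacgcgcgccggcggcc
EHF first start: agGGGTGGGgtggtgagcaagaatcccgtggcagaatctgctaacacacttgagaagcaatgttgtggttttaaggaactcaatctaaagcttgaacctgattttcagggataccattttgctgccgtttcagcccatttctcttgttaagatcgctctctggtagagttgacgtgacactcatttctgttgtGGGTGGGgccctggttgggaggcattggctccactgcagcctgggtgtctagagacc
TP63: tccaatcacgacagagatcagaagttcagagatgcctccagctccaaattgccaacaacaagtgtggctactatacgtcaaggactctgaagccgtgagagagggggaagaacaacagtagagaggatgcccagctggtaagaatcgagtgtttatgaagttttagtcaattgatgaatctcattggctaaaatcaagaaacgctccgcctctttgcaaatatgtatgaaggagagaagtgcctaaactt

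The motifs were searched on both strands: AP-1 (TGANTCA), STAT (TTCNNNGAA), SMAD (GTCTG), grainyhead (AACNNGTT), KLF/SP (GGGNGGG) and ETS (CCGGAA). Over all 35116 promoters of the table, windows of the same length held an AP-1 match in 6.57%, a STAT match in 6.57%, a SMAD match in 38.0%, a grainyhead match in 2.999%, a KLF/SP match in 51.6% and an ETS match in 14.5%. KLF4 carried 7 KLF/SP matches, several of them overlapping, in a window of 69.2% GC. The first GRHL3 start carried 1 KLF/SP match, and the second carried 1 KLF/SP and 1 SMAD match. The first EHF start carried 2 KLF/SP matches, and its second start, not printed because it overlaps an exon, carried 1 SMAD match and no KLF/SP match. The TP63 window, at 44% GC, held none of the 6 motifs. It is the only TP63 entry and lies directly before the first base of the gene, so starts inside the gene are not covered. Which start the counted TP63 RNA came from was not tested. A match is a description of the letters and not a site.

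TP63 (chr3:189631389-189897276, plus strand) was the member that rose with OSM. The 3 PBS libraries held 121, 112 and 109 CPM, the OSM libraries 195, 184 and 185, and the OSM+TGFB libraries 193, 199 and 192. No OSM or OSM+TGFB library overlapped PBS, and these were the 2 highest groups, which overlapped each other. Against PBS the log2 fold change was 0.72 ± 0.05 (SE, n = 3 against 3; edgeR adjusted p 4.97e-13) in OSM and 0.77 ± 0.05 (7.19e-14) in OSM+TGFB. EGF went the other way, with 87.9, 85.4 and 86.3 CPM, a log2 fold change of -0.40 ± 0.05 (adjusted p 2.01e-08). EGF+TGFB libraries (89.1, 85.8 and 84.3 CPM) overlapped those of EGF alone. With EGF and OSM together TP63 stood at 138, 136 and 146 CPM, above PBS by 0.29 ± 0.05 on the log2 scale (adjusted p 2.18e-06). OSM raised TP63 in each of its 4 settings, by 0.72 alone, 0.69 on EGF, 0.55 on TGFB and 0.51 on EGF+TGFB, and EGF lowered it in each of its 4, by between -0.40 and -0.67. TGFB raised it alone (0.22 ± 0.05, adjusted p 0.000445), and lowered it on EGF+OSM (-0.19 ± 0.05, adjusted p 0.000956). In EGF+OSM+TGFB the libraries at 124, 124 and 121 CPM did not overlap PBS, and the log2 fold change was 0.11 ± 0.05 (adjusted p 0.0374). This last call was lost under DESeq2 (adjusted p 0.0899), without a filter (0.1001), under upper-quartile scaling (0.826, log2 fold change 0.01), with only the 2 groups in the fit (0.215), and without PBS replicate 2 or 3 or without replicate 1 or 2 of the triple combination.

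GRHL3 (chr1:24199558-24364482, plus strand), a barrier gene activator, was the grainyhead member that EGF and OSM both lowered, and their pair lowered it furthest. PBS libraries held 76.3, 80.0 and 87.2 CPM, EGF libraries 27.8, 30.9 and 26.9, and OSM libraries 26.7, 30.9 and 23.7. The EGF and OSM libraries overlapped each other and stayed clear of PBS, with log2 fold changes of -1.51 ± 0.14 (edgeR adjusted p 1.16e-09) and -1.58 ± 0.14 (9.90e-10). In EGF+OSM the level was 7.502, 9.54 and 6.27 CPM, 10.4-fold below PBS (log2 fold change -3.38 ± 0.15, adjusted p 6.01e-15). EGF+OSM+TGFB libraries were higher than that pair at 15.4, 19.5 and 13.9 CPM, with no overlap. TGFB alone left 59.5, 64.9 and 70.9 CPM, a log2 difference of -0.32 ± 0.13 that did not pass (adjusted p 0.0626) although no library overlapped PBS. It passed under DESeq2 (0.0454), under upper-quartile scaling (0.0373) and with only those 2 groups in the fit (0.00389).

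GRHL1 (chr2:9951693-10002277, plus strand), another grainyhead activator, followed EGF more than OSM. Its PBS libraries held 44.4, 51.3 and 54.2 CPM and its EGF libraries 16.2, 18.9 and 16.8, a log2 fold change of -1.53 ± 0.14 (adjusted p 1.78e-09). OSM libraries were spread from 35.6 to 53.8 CPM and overlapped PBS, and the difference of -0.19 ± 0.14 did not pass (adjusted p 0.233). Without OSM replicate 2, the highest of that group, it became -0.37 (adjusted p 0.0213). On top of EGF, OSM did lower GRHL1, to 9.13, 10.3 and 7.21 CPM (-0.96 ± 0.15, adjusted p 3.60e-05). All 4 groups with EGF lay below all 5 groups without it. TGFB alone lowered GRHL1 (-0.47 ± 0.14, adjusted p 0.00988), a call lost without PBS replicate 3 (0.0503) or TGFB replicate 1 (0.0655). OSM added to TGFB gave -0.33 (adjusted p 0.0480), which was lost with rows tested as deposited (0.0530), without a filter (0.102) and without any of 4 single libraries.

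GRHL2, the grainyhead factor best known for keeping E-cadherin on in simple epithelia, was at the limit of detection in every group. It had 0 to 6 counts per library and 51 counts over all 27, and 14 libraries were at 0, among them all 6 of OSM+TGFB and EGF+OSM+TGFB. The highest library reached 0.171 CPM, and 3 counts, the upper limit that a count of 0 allows in 1 library, correspond to 0.0566 to 0.105 CPM. The PBS libraries had 5, 3 and 4 counts. GRHL2 did not pass the filter on low counts and was not tested, and no fold is given. CDH1 (E-cadherin) and the splicing factor ESRP1 were expressed in the same libraries, with group means of 180 to 656 CPM and 64.4 to 125 CPM.

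KLF4 (chr9:107484852-107490482, minus strand), a factor of epithelial differentiation, rose with TGFB and fell with EGF and OSM. TGFB libraries held 67.0, 64.2 and 62.3 CPM against 41.7, 44.4 and 44.4 in PBS, and the groups did not overlap (log2 fold change 0.57 ± 0.10, edgeR adjusted p 4.45e-05). EGF lowered it to 22.7, 24.0 and 21.0 CPM (-0.95 ± 0.10, adjusted p 5.31e-09) and OSM to 12.3, 13.5 and 10.0 CPM (-1.86 ± 0.11, adjusted p 8.44e-14). The lowest libraries were those of EGF+OSM, at 7.88, 7.40 and 6.35 CPM. TGFB raised KLF4 in all 4 settings: by 0.57 on PBS, 0.53 ± 0.10 on EGF (adjusted p 7.35e-05), 0.57 ± 0.11 on OSM (0.000107) and 1.24 ± 0.12 on EGF+OSM (1.07e-09). In EGF+TGFB the level (31.1, 36.0 and 30.8 CPM) remained below PBS by -0.41 ± 0.10 (adjusted p 0.000628). EGF added to OSM+TGFB gave a difference of -0.06 ± 0.11 that did not pass (adjusted p 0.672), whereas EGF had lowered KLF4 in its other 3 settings.

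KLF5 (chr13:73054976-73077541, plus strand), a factor of basal and proliferating epithelium, was highest in PBS, at 353, 365 and 367 CPM. EGF lowered it to 168, 172 and 170.4 CPM, a log2 fold change of -1.09 ± 0.05 (adjusted p 2.33e-15), and OSM to 234, 243 and 242 CPM, a change of -0.59 ± 0.05 (2.55e-10). The pair did not lower it beyond EGF: EGF+OSM libraries stood at 193, 189 and 182 CPM, all above the 3 EGF libraries. OSM thus lowered KLF5 on PBS and on TGFB (-0.45 ± 0.05) and raised it on EGF (0.14 ± 0.05, adjusted p 0.0346) and on EGF+TGFB (0.29 ± 0.05, adjusted p 0.000145). The rise on EGF was lost under upper-quartile scaling (0.0533), without a filter (0.0639), with only the 2 groups in the fit (0.0683) and without any of 5 single libraries of the 6, and the rise on EGF+TGFB was kept in every alternative run. TGFB lowered KLF5 in all 4 settings, from -0.51 on PBS to -0.25 on EGF+OSM. EGF+TGFB gave the lowest level, 125, 131 and 132 CPM.

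OVOL1 (chr11:65787063-65797214, plus strand), the zinc finger repressor, fell from 21.9, 25.3 and 28.3 CPM in PBS to 6.10, 7.74 and 6.93 with EGF and 7.12, 8.39 and 6.78 with OSM. The log2 fold changes were -1.86 ± 0.17 (adjusted p 8.73e-10) and -1.76 ± 0.17 (3.87e-09), and the EGF and OSM groups overlapped each other. EGF+OSM left 1.35, 1.30 and 1.09 CPM, 20.2-fold below PBS (-4.33 ± 0.21, adjusted p 5.58e-15). With TGFB added, all 3 libraries were higher again, at 3.18, 3.90 and 3.20 CPM. TGFB alone gave -0.34 ± 0.16, which did not pass (adjusted p 0.112), and on EGF (-0.14) and on OSM (-0.40) it did not pass either. The effect alone passed with only those 2 groups in the fit (0.0359), and that on OSM (adjusted p 0.0766) passed without OSM+TGFB replicate 2 (0.0265) or 3 (0.0368).

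ELF3 (chr1:202007945-202017183, plus strand) and EHF (chr11:34621093-34663288, plus strand), the epithelial ETS factors, had the largest changes among the members in the triple combination. EHF fell from 291, 325 and 302 CPM in PBS to 39.5, 54.7 and 40.1 with EGF (-2.77 ± 0.19, edgeR adjusted p 4.49e-11) and 96.5, 132 and 85.7 with OSM (-1.55 ± 0.18, adjusted p 2.46e-07). In EGF+OSM+TGFB it was at 11.9, 14.4 and 8.06 CPM, 26.8-fold below PBS (-4.75 ± 0.22, adjusted p 4.13e-14). From PBS down through TGFB, T0, OSM, OSM+TGFB, EGF, EGF+OSM and EGF+TGFB, no group overlapped its neighbour, and only EGF+TGFB and the triple combination overlapped. TGFB lowered EHF in all 4 settings, by -0.58 ± 0.18 on PBS (adjusted p 0.0139), -1.41 ± 0.20 on EGF, -0.61 ± 0.18 on OSM and -1.06 ± 0.21 on EGF+OSM. The call on PBS was lost without TGFB replicate 1 (adjusted p 0.0699) and that on OSM without OSM replicate 2 (0.0799).

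ELF3 fell from 209.6, 262 and 207 CPM in PBS to 28.1, 34.1 and 20.6 with EGF (-3.03 ± 0.36, adjusted p 2.27e-07) and to 66.9, 98.7 and 39.5 with OSM (-1.72 ± 0.33, adjusted p 0.000160). In EGF+OSM+TGFB it was at 8.17, 12.8 and 5.39 CPM, 25.7-fold below PBS (-4.70 ± 0.40, adjusted p 2.15e-09). TGFB alone left 192, 237 and 182 CPM, which overlapped PBS (-0.15 ± 0.32, adjusted p 0.763), and the other 3 TGFB effects on ELF3 did not pass either. The effect on OSM (-0.70, adjusted p 0.0973) passed without OSM replicate 3 (-0.97, adjusted p 0.0237). Its libraries of 1 group varied widely, with OSM libraries from 39.5 to 98.7 CPM. In both ELF3 and EHF the library numbered 2 was the highest of its group in all 9 groups, and in ELF3 the library numbered 3 was the lowest in all 9. The fall of ELF3 when OSM was added to EGF (-1.36 ± 0.38, adjusted p 0.00877) was lost with only the 2 groups in the fit (0.0595) and without EGF+OSM replicate 3 (0.0570). The fall when OSM was added to EGF+TGFB (-1.25 ± 0.41, adjusted p 0.0274) was lost with only the 2 groups in the fit (0.0594) and without replicate 1 or 3 of the triple combination or EGF+TGFB replicate 2.

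GATA3 (chr10:8045378-8075198, plus strand), the luminal factor, fell with EGF and with OSM, whereas its 4 TGFB effects did not pass. It stood at 24.7, 27.4 and 26.7 CPM in PBS, 12.5, 14.2 and 13.9 in EGF and 18.3, 19.4 and 14.96 in OSM. EGF and OSM libraries did not overlap PBS or each other, and the log2 fold changes were -0.96 ± 0.09 (adjusted p 2.04e-10) and -0.58 ± 0.08 (1.45e-06). TGFB libraries, at 28.8, 26.6 and 28.0 CPM, overlapped PBS (0.08 ± 0.08, adjusted p 0.502). TGFB added to OSM gave -0.20 (adjusted p 0.0633), which passed under upper-quartile scaling (0.0342) and without OSM replicate 3 (0.00503) or OSM+TGFB replicate 2 (0.0456). The 4 groups with EGF lay between 10.4 and 14.2 CPM, and each overlapped its neighbour in level.

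**Figure D2:**
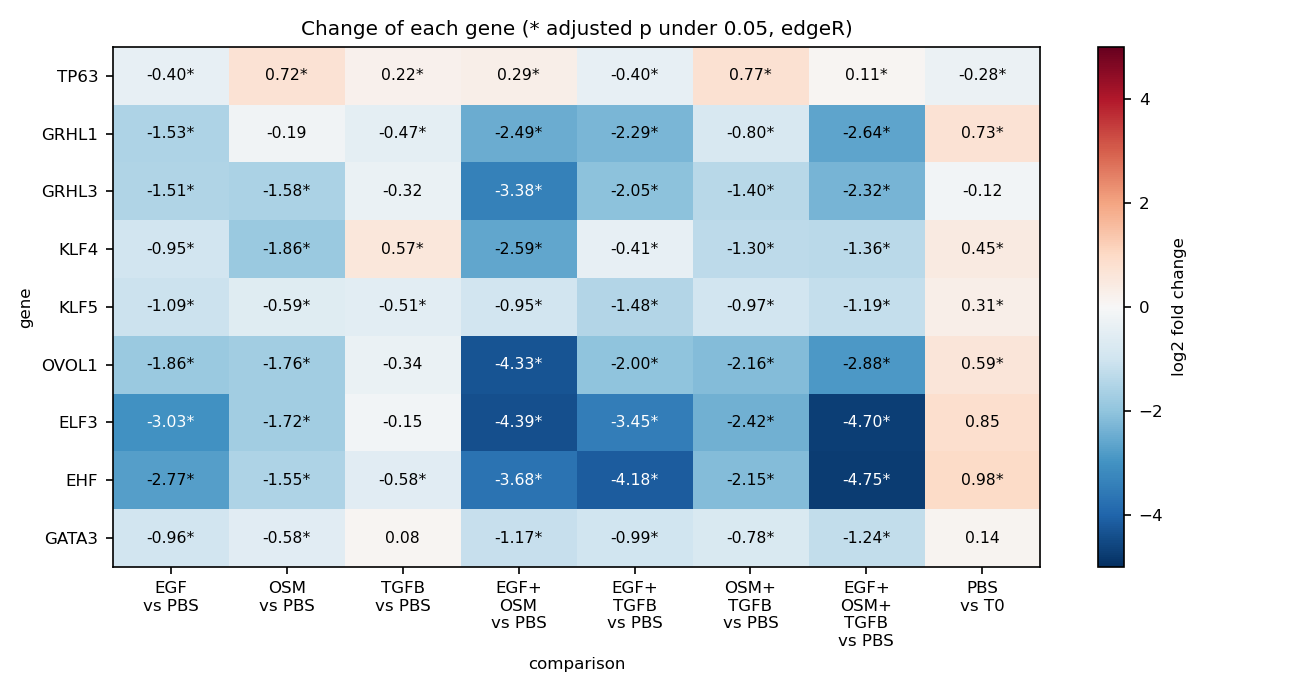
Fitted log2 fold changes of the 9 tested factors in the 7 ligand groups against PBS and in PBS against T0. Blue is lower, red is higher, and an asterisk marks an adjusted p under 0.05. The darkest blue cells are ELF3 (-4.70) and EHF (-4.75) in the triple combination and ELF3 (-4.39) and OVOL1 (-4.33) in EGF+OSM.

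Many genes responded in these cells, so the counts of members need the share of all tested genes beside them. EGF lowered 9 of 9 tested members against PBS, where 73.5% of all tested genes were called and 38.6% were called lower. The members' median log2 fold change was -1.51, against -0.07 over all genes. OSM called 8 (7 lower, 1 higher), with 63.4% of all genes called and 29.8% lower, and medians of -1.55 and 0.00. TGFB called 5 (3 lower, 2 higher), with 35.6% called and 15.8% lower, and medians of -0.32 and -0.01. EGF+TGFB called all 9 lower (73.7% of genes called, 37.5% lower). EGF+OSM (77.2% called, 39.6% lower), OSM+TGFB (66.0% called, 31.8% lower) and EGF+OSM+TGFB (74.4% called, 36.7% lower) each called 8 lower and TP63 higher. These comparisons share the PBS libraries. With most genes called in 6 of these 7 comparisons, the members' counts are read by direction and size: their medians were -2.59 in EGF+OSM, -2.00 in EGF+TGFB, -1.30 in OSM+TGFB and -2.32 in the triple combination, and those over all genes lay between -0.05 and 0.00.

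The members called for a ligand differed between the settings in which it was added. Such counts do not test whether its effect differed between settings, and those for TGFB lie near the shares of all genes. EGF lowered 9 of 9 members when added to OSM (61.7% of all genes called, 31.8% lower) and to TGFB (69.4% called, 35.5% lower), and 8 when added to OSM+TGFB (52.2% called, 25.9% lower). OSM added to EGF lowered 6 and raised TP63 and KLF5 (34.9% of genes called). OSM added to TGFB lowered 8 and raised TP63 (56.6%), and OSM added to EGF+TGFB lowered 4 and raised TP63 and KLF5 (26.4%). Of those 4, the GATA3 call (-0.25, adjusted p 0.0419) was lost without replicate 1 or 3 of the triple combination or replicate 2 or 3 of EGF+TGFB. EHF (-0.57, adjusted p 0.0617) passed there under DESeq2 (0.0235) and without replicate 2 of the triple combination (0.0298) or EGF+TGFB replicate 1 (0.0441). TGFB added to EGF lowered GRHL1, GRHL3, KLF5 and EHF and raised KLF4 (54.6% of genes called). TGFB added to OSM lowered GRHL1, KLF5 and EHF and raised KLF4 (51.6%). TGFB added to EGF+OSM raised GRHL3, KLF4 and OVOL1 and lowered TP63, KLF5 and EHF (61.1%). Set against EGF directly, OSM left TP63, GRHL1, KLF5, ELF3, EHF and GATA3 higher and KLF4 lower, 7 of 9 members where 56.8% of all genes were called.

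**Figure D3:**
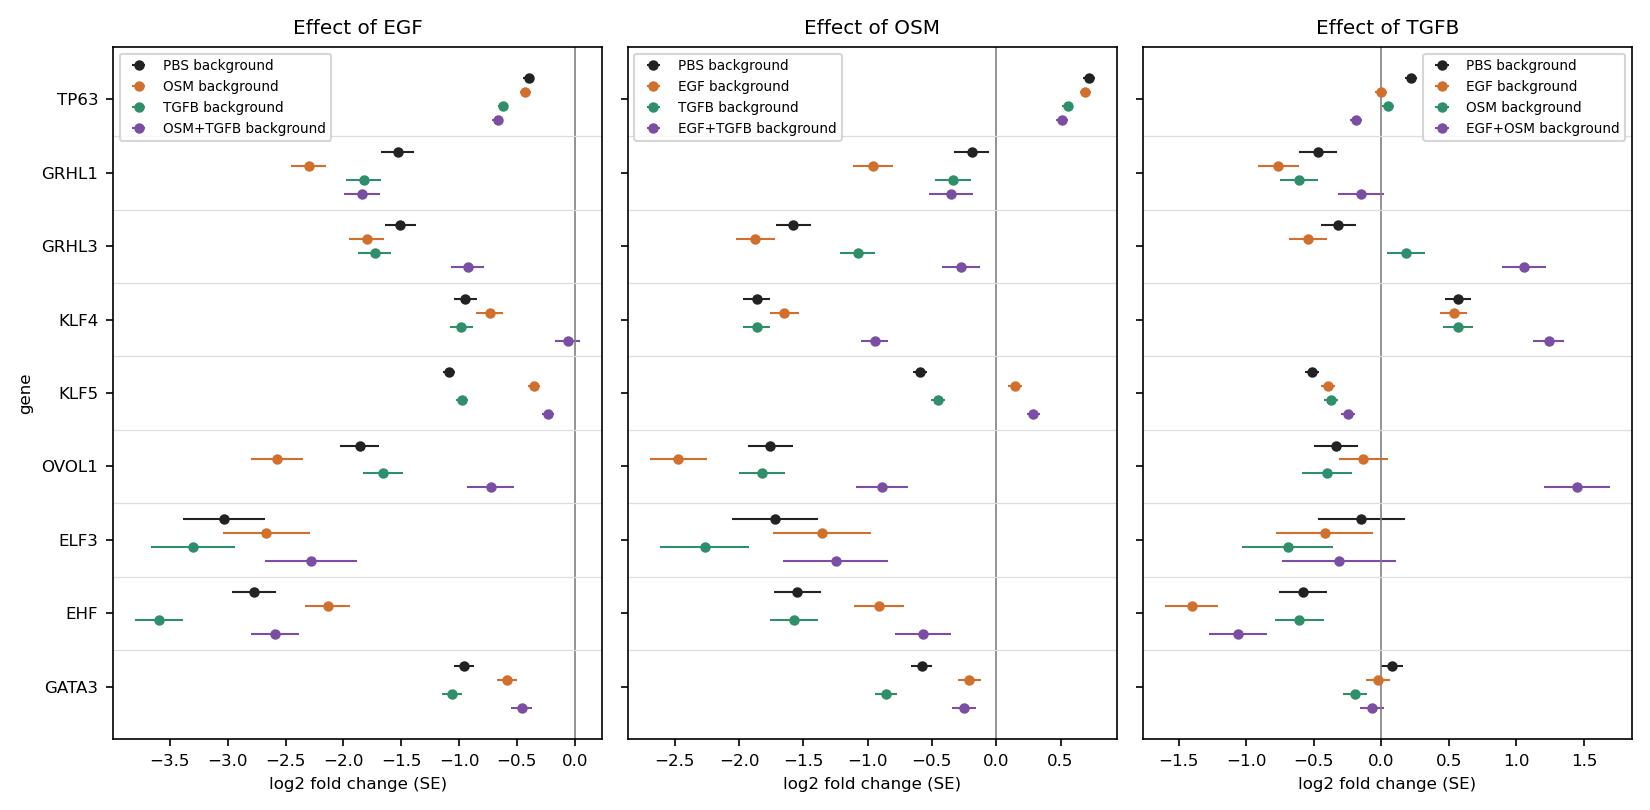
Effect of EGF, OSM and TGFB on each factor in the 4 settings in which each was added, as fitted log2 fold change with its SE. In the TGFB panel the point for the EGF+OSM setting lies to the right of the other 3 for GRHL3, KLF4 and OVOL1. The same holds for GRHL1 and KLF5, whose 4 points all lie below 0. In the OSM panel KLF5 lies below 0 on PBS and TGFB and above 0 on EGF and EGF+TGFB.

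The rise of GRHL3, KLF4 and OVOL1 when TGFB was added to EGF+OSM was set against the TGFB effect in each other setting, in comparisons chosen after the data were seen. GRHL3 rose by 1.06 ± 0.16 on EGF+OSM (adjusted p 5.11e-06), and that effect exceeded the one on PBS by 1.37 ± 0.21 (adjusted p 1.31e-05), on EGF by 1.60 ± 0.21 (3.65e-05) and on OSM by 0.87 ± 0.21 (0.00731). OVOL1 rose by 1.45 ± 0.24 (adjusted p 1.50e-05), which exceeded its other 3 TGFB effects by 1.78 ± 0.29 (2.82e-05), 1.58 ± 0.30 (0.00138) and 1.85 ± 0.31 (0.000278). KLF4 rose by 1.24 ± 0.12, more than in the other 3 settings by 0.67 ± 0.15 (0.000761), 0.70 ± 0.15 (0.00372) and 0.67 ± 0.16 (0.00527). All 9 of these differences were kept in every alternative run. The 3 comparisons called 44.4%, 9.55% and 16.4% of all genes in the order PBS, EGF and OSM. TP63 differed the other way on PBS (-0.40 ± 0.06, adjusted p 1.55e-05) and on OSM (-0.24 ± 0.06, 0.0133), and KLF5 differed on PBS (0.26 ± 0.07, 0.00543). GRHL1, ELF3, EHF and GATA3 did not pass in the 3 comparisons, nor did TP63 on EGF (-0.18, adjusted p 0.0744). Against the effect on EGF, GRHL1 (0.61, adjusted p 0.0970) passed under DESeq2 (0.0421), and TP63 under DESeq2 (0.0280) and without EGF+TGFB replicate 3 (0.0303). After TGFB was added, all 3 genes that rose were still below PBS, with log2 fold changes of -2.32 for GRHL3, -2.88 for OVOL1 and -1.36 for KLF4.

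Departure from additivity is the log2 response to a combination minus the sum of the responses to its single ligands. For EGF+OSM it passed in 3 members, against 38.7% of all genes: KLF5 fell less than the sum (0.74 ± 0.07, edgeR adjusted p 1.27e-08), GATA3 fell less (0.37 ± 0.12, 0.0181) and GRHL1 fell more (-0.77 ± 0.21, 0.00486). The GATA3 value was lost without EGF replicate 1 (0.0562), EGF+OSM replicate 2 (0.0690) or OSM replicate 3 (0.0699). OVOL1 (-0.71 ± 0.29, 0.0512) and EHF (0.63 ± 0.26, 0.0620) did not pass. OVOL1 passed under DESeq2 (0.0388), in the edgeR fit of only the groups compared (0.00870), and without EGF replicate 1 (0.0410) or PBS replicate 3 (0.0364). EHF passed under upper-quartile scaling (0.0442) and without EGF replicate 2 (0.0233), EGF+OSM replicate 3 (0.0421) or OSM replicate 2 (0.0136). For EGF+TGFB it passed in EHF (-0.82 ± 0.27, 0.0232) and TP63 (-0.22 ± 0.06, 0.0117), against 29.8% of all genes. Both were lost without a filter (0.0647 and 0.125), TP63 without EGF+TGFB replicate 3 (0.119), and EHF without any of 4 single libraries. For OSM+TGFB no member passed in the edgeR fit of all 27 libraries, where 23.3% of all genes were called and 3 members had an unadjusted p under 0.05. GRHL3 passed under DESeq2 (0.51, adjusted p 0.0374) and in the edgeR fit of only the groups compared (0.0342). It also passed without OSM replicate 2 (0.0309) or OSM+TGFB replicate 1 (0.0375), TP63 passed without PBS replicate 1 (0.0229) and GATA3 without OSM replicate 3 (0.0177). For the triple combination 5 passed, against 48.0% of all genes: GRHL3 (1.08 ± 0.27, 0.00193), KLF4 (0.88 ± 0.20, 0.000731), KLF5 (1.00 ± 0.10, 1.85e-08) and OVOL1 (1.07 ± 0.35, 0.0128) ended higher than the sum, and TP63 lower (-0.43 ± 0.09, 0.000343). The OVOL1 value was lost without PBS replicate 3 (0.88, adjusted p 0.0661). ELF3 had the widest errors, with an SE of up to 0.69. Departures of 1 SE, and well above it, could therefore have gone undetected in ELF3.

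**Figure D4:**
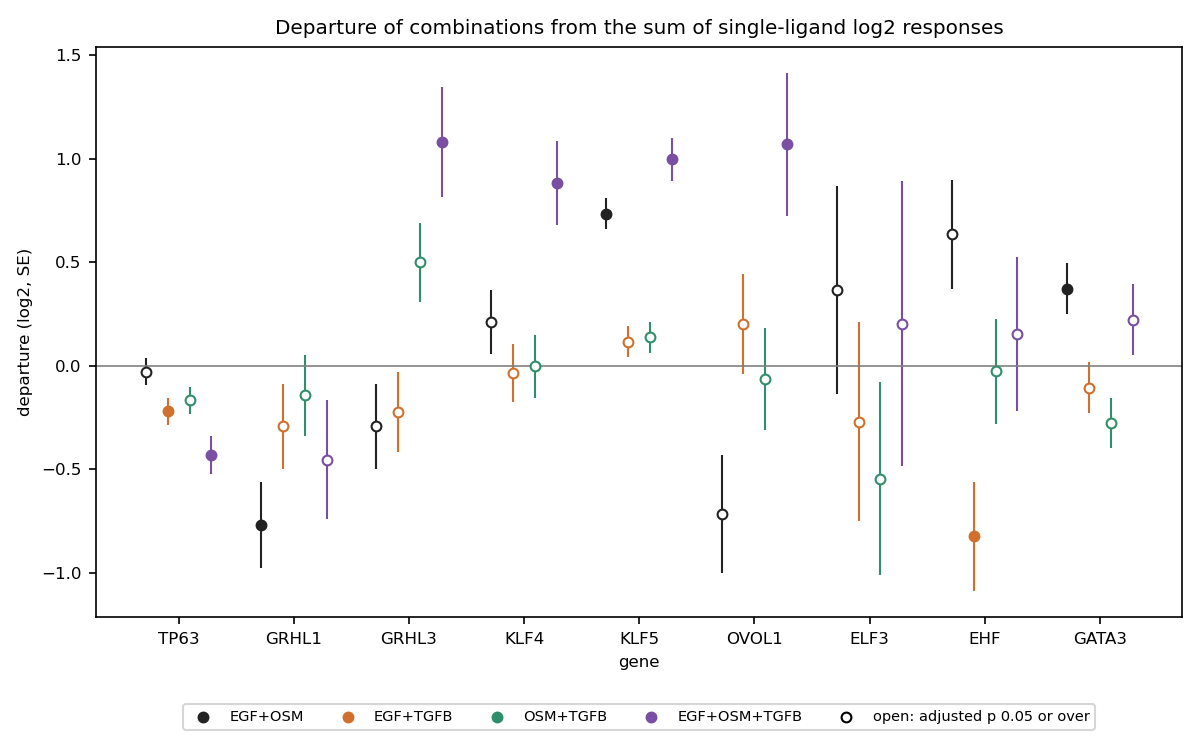
Departure of each combination from the sum of its single-ligand log2 responses, with its SE, for the 9 tested factors. Filled points have an adjusted p under 0.05, open points do not. For the triple combination GRHL3, KLF4, KLF5 and OVOL1 lie near 1 and TP63 lies at -0.43.

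Most members also differed between T0 and the vehicle group taken 24 h later. Of 9, 6 passed, where 35.1% of all genes were called. EHF rose from 154, 170.4 and 142 CPM at T0 to its PBS level, a log2 fold change of 0.98 ± 0.18 (adjusted p 0.000229), and GRHL1 by 0.73 ± 0.14, OVOL1 by 0.59 ± 0.16, KLF4 by 0.45 ± 0.10 and KLF5 by 0.31 ± 0.05. TP63 fell, from 146, 139 and 129 CPM (-0.28 ± 0.05, adjusted p 3.15e-05). ELF3 stood at 134, 146 and 97.0 CPM at T0, below every PBS library, and its difference of 0.85 ± 0.32 lay just outside the threshold (adjusted p 0.0501). It passed under upper-quartile scaling (0.0474) and with only those 2 groups in the fit (0.0126). The fit with the replicate number as a block, where ELF3 also passed, is given in the last section. GRHL3 (-0.12) and GATA3 (0.14) did not pass. T0 and PBS differ both in the time since growth factors were removed and in the addition of vehicle, and these cannot be told apart.

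The members' profiles over the 9 group means were compared as a description. Pearson's r of log2 CPM (prior count of 2) was above 0 in 34 of 36 pairs, with a median of 0.81. These points share libraries and scaling, and 4 of the 9 groups received EGF. ELF3 was closest to GATA3 (r = 0.98) and to EHF (0.97), and GRHL3 to OVOL1 (0.97). TP63 stood apart: its r with the other members lay between -0.38 for KLF4 and 0.41 for GRHL1. KLF4 had r of 0.37 with KLF5, 0.45 with GRHL1 and 0.54 with EHF, and 0.71 to 0.86 with GRHL3, OVOL1, ELF3 and GATA3. Over 8483 candidate protein-coding genes with a range of at least 1 on the log2 scale, the most similar profiles to TP63 were CNTNAP3 (r = 0.98), FLOT1 (0.97) and APOL1 (0.96). Those of the grainyhead members were TMPRSS13 (0.99), ALDH3B2 (0.98) and NOTCH3 (0.98) for GRHL1 and DISP1, ASAP3 and APOD (all 0.99) for GRHL3. KLF4 was most similar to MYO5B, PLEKHG1 and FGD4 (all 0.98), KLF5 to HRNR, GRTP1 and INTU (all 0.99), and OVOL1 to TENT5B (0.99), HOXC13 (0.98) and SCNN1D (0.98). ELF3 was most similar to ZNF524, TMC4 and ASAH1 (all 0.99), EHF to JMY, RNF135 and NEURL2 (all 0.99), and GATA3 to ASAH1, MARCHF8 and SMPDL3A, with r of 1.00, 1.00 and 0.99.

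**Figure D5:**
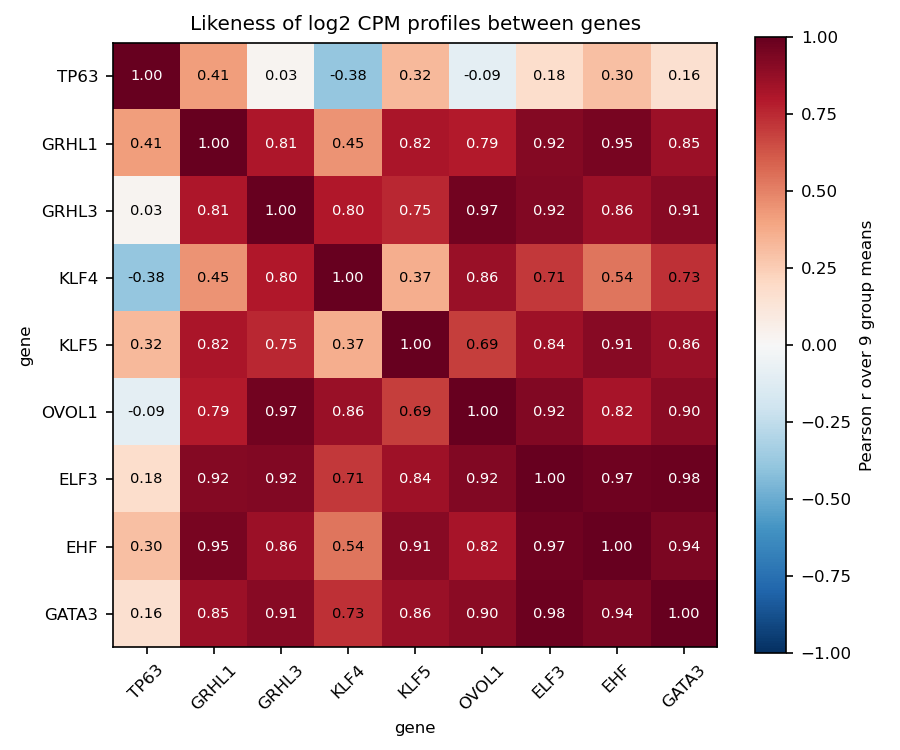
Pearson r between the profiles of the 9 tested factors over 9 group means of log2 CPM. The colour scale runs from -1 to 1. TP63 has the palest row, and ELF3, EHF and GATA3 form pairs with r of 0.94 to 0.98.

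Genes known to act with these factors were counted from lists chosen by function. In the order EGF, OSM, TGFB and EGF+OSM+TGFB against PBS and TGFB added to EGF+OSM, the median log2 fold changes over all genes tested were -0.07, 0.00, -0.01, 0.00 and 0.02. The shares of all genes called in them were 73.5%, 63.4%, 35.6%, 74.4% and 61.1%, and a list whose share lies near these is not set apart by its count. Of 18 other epithelial transcription factors 16 were tested: EGF raised 2 and lowered 14 (median log2 fold change -0.89), OSM raised 4 and lowered 11 (-0.83), TGFB raised 2 and lowered 5 (-0.15), and the triple combination raised 3 and lowered 11 (-1.12). ZNF750, an epidermal differentiation factor and known p63 target, fell from 38.4 ± 5.19 CPM (SD, n = 3) in PBS to 1.26 ± 0.447 in the triple combination. TP73, which encodes the p63 relative p73, rose with OSM from 6.52 ± 0.517 to 13.7 ± 2.17 CPM and fell in the triple combination to 0.512 ± 0.323. TGFB added to EGF+OSM raised 8 of these 16 and lowered 6 (median 0.27).

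The basal list of 15 genes did not move in 1 direction. EGF raised 6 and lowered 6 (median 0.03), OSM raised 8 and lowered 3 (0.78), TGFB raised 7 and lowered 3 (0.07), and the triple combination raised 8 and lowered 6 (0.99). LAMA3, which encodes a laminin chain of the basement membrane, rose from 456 ± 31.4 CPM in PBS to 9355 ± 669 in the triple combination, a log2 fold change of 4.36. The basal keratin KRT15 fell from 1580.0 ± 153 to 7.59 ± 1.69 CPM. TP63 itself changed by 0.11 there. TGFB added to EGF+OSM raised 8 and lowered 3 of the basal genes (median 0.26).

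Among 15 junction genes and grainyhead targets, EGF raised 2 and lowered 10 (median -0.59), OSM raised 1 and lowered 11 (-0.68), TGFB raised 5 and lowered 2 (-0.05) and the triple combination raised 1 and lowered 11 (-0.91). TGFB added to EGF+OSM raised 7 and lowered 4 (0.26). CLDN4, a tight junction claudin, fell from 139 ± 17.1 CPM in PBS to 21.9 ± 7.46 in OSM, and stood at 5.61 ± 2.62 in EGF+OSM and 29.2 ± 5.72 in EGF+OSM+TGFB. CDH1 stood at 516 ± 15.7 CPM in PBS, 180 ± 34.9 in EGF+OSM and 454 ± 49.1 in the triple combination. RAB25, a small GTPase of epithelial trafficking, fell from 15.2 ± 1.54 to 1.87 ± 0.149 CPM in the triple combination, and TGM1, the crosslinking enzyme of the barrier, from 239 ± 40.7 to 33.0 ± 0.502.

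In the list of 14 suprabasal differentiation genes 12 were tested, and EGF, OSM and the triple combination each lowered all 12, with medians of -1.77, -5.29 and -7.04 (-6.75 with the 2 genes that averaged at most 3 counts in a group set to that floor of 3 counts per library). TGFB raised 2 and lowered 4 (median -0.37), and TGFB added to EGF+OSM raised 2 and lowered 3 (-0.47, or -0.28 with 2 genes at the floor). KRT13 and SPRR1A, a suprabasal keratin and a cornified envelope precursor, fell from 101 ± 14.96 and 126 ± 30.6 CPM in PBS to 0.246 ± 0.0808 and 0.547 ± 0.0539 in the triple combination. The suprabasal keratin KRT1 went from 92.2 ± 15.8 CPM to 0.0326 ± 0.0565, a mean of 1.33 counts per library.

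Luminal genes were mixed, with 10 of 12 tested: EGF raised 2 and lowered 6 (median -1.09, or -0.80 with 3 genes at the floor), OSM raised 4 and lowered 3 (-0.33), TGFB raised 4 and lowered 2 (-0.41, or -0.26 with 1 gene at the floor), the triple combination raised 4 and lowered 4 (-0.70), and TGFB added to EGF+OSM raised 4 and lowered 1 (0.30, or 0.45 with 1 gene at the floor). MUC1, a luminal mucin, fell from 642 ± 74.9 to 131 ± 14.6 CPM in EGF, and CD24, a surface marker of luminal cells, from 1434 ± 51.8 to 300.1 ± 50.4 in OSM. LTF, which encodes the milk protein lactoferrin, rose with OSM from 0.0846 ± 0.0542 to 20.4 ± 10.6 CPM. GATA3 fell with both EGF and OSM.

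Of 7 genes for repressors that act against epithelial factors, EGF raised 3 and lowered 2 (median 0.00), OSM raised 3 and lowered 2 (0.10), TGFB raised 3 and lowered 2 (0.41), the triple combination raised 4 and lowered 2 (0.44) and TGFB added to EGF+OSM raised 5 and lowered 1 (0.77). For EGF and OSM, 5 of 7 called lies near the share of all genes. SNAI1, which encodes Snail, stood at 0.182 ± 0.0383 CPM in PBS, 14.9 ± 1.28 in OSM, 3.62 ± 0.790 in EGF+OSM, 53.1 ± 1.58 in OSM+TGFB and 52.4 ± 4.81 in the triple combination, a log2 fold change of 8.15 ± 0.18 there (edgeR adjusted p 3.30e-22). ZEB1 rose from 2.36 ± 0.266 to 15.1 ± 1.43 CPM in the triple combination, where TWIST1 fell from 16.8 ± 0.591 to 2.80 ± 0.237. SNAI1 was highest in the 2 groups with OSM and TGFB together. GRHL3, KLF4 and OVOL1 were lowest in EGF+OSM. A relation between SNAI1 and these genes was not tested.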

How the data were processed

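PolyA RNA of 27 MCF10A libraries was sequenced from TruSeq stranded mRNA libraries, per the labels' protocols. The deposited values are estimated counts per gene, all whole numbers. The submitters' processing notes name Trim Galore 0.4.3, cutadapt 1.10, FastQC 0.11.5, kallisto 0.46.2 and R 3.5.0 with GRCh38.p5 and hg38. The annotation release, the summing to genes and the strand setting are not given in the sources used here. Of 40487 rows, 7165 had no symbol (0.324% of counts) and were kept under their Ensembl gene identifier. Rows with the same symbol (1962 symbols) were summed over the whole table. Every pair of replicates differed beyond sampling noise (chi-square per degree of freedom 6.84 to 33.9).

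From these counts, genes were kept by edgeR's filterByExpr, scaled by TMM (factors 0.867 to 1.12) and fitted in R 4.3.3 with edgeR 4.0.16 (glmQLFit, robust, and glmQLFTest, two-sided) on group means of all 27 libraries, with 18 residual degrees of freedom. p-values were adjusted over all 15575 genes by the Benjamini-Hochberg method. CPM uses the scaled library sizes, and each SE is the log2 fold change over the root of its F. Alternatives were DESeq2 1.42.0, upper-quartile scaling, no filter, rows as deposited, only the groups compared, a replicate block and each library left out.

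The members and lists were chosen with earlier results of these data known. Named were all 10 members, up to 3 genes per list with the largest called change and a group mean of at least 10 CPM, and the 3 genes most like each member over 9 group means. Some list genes so named are not reported here. Comparisons of the TGFB effect between settings were added after the data were seen, as were CDH1 and ESRP1, named for GRHL2.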

Additional observations from a re-analysis of the deposited data

Results flagged for a closer look

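KLF5 was singled out because the effect of OSM on it had opposite directions with and without EGF. OSM lowered KLF5 against PBS, with a log2 fold change of -0.59, and raised it when added to EGF, with 0.14, a call that was lost in several alternatives (adjusted p 0.0533 under upper-quartile scaling). The difference between the 2 effects was 0.74 (edgeR adjusted p 1.27e-08), which was kept in every alternative run. All 3 OSM libraries lay below all 3 PBS libraries, and all 3 EGF+OSM libraries lay above all 3 EGF libraries.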

How the results depend on the processing

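Over 225 member comparisons, of which 157 were called, 3105 values under an alternative were obtained. Of these, 3005 stayed on their side of the threshold, 47 lost a call and 53 gained one, and 0 called values turned direction. Values that were not called could change sign, such as the OSM+TGFB departure of OVOL1 (-0.23 to 0.20); 32 member comparisons had a call that changed in some alternative. The cause of these changes was not tested.

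Without a filter, 0 members departed from additivity in EGF+TGFB, where 2 did with it. DESeq2 and the fit of only the groups compared each called 1 member for the OSM+TGFB departure, against 0. Leaving out single libraries gave 3 to 5 called members for TGFB versus PBS (3 without TGFB replicate 1, against 5), 0 to 2 for the EGF+TGFB departure (0 without EGF+TGFB replicate 3), and 0 to 1 for the OSM+TGFB departure. The counts for EGF, EGF+OSM, EGF+TGFB and OSM+TGFB versus PBS stayed at 9 in every such fit. Shares of all genes called in these alternative fits are not given here, so changes in the counts are not read as particular to the members. Upper-quartile scaling moved the median of all genes by at most 0.0940 on the log2 scale, in EGF+TGFB versus PBS (from -0.04 to -0.14).

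The labels do not say what a replicate number marks, and the libraries were not treated as paired: same-numbered libraries of different groups had correlated deviations of -0.03 to 0.18, over 0.1 in 23 of 108 pairs, although 26 of 27 libraries correlated best with their own number. With the replicate number as a block, 7 members were called for TGFB added to OSM (4 without the block) and 5 for the EGF+OSM departure (3 without). For the OSM+TGFB departure 2 were called (0 without), and for TGFB versus PBS 7 (5 without). Without the block, 51.6%, 38.7%, 23.3% and 35.6% of all genes were called in these comparisons, in that order. The shares with the block are not given here, so these gains are not read as particular to the members. The calls gained with the block were GRHL3 (adjusted p 0.0164) and OVOL1 (0.0232) for TGFB versus PBS, ELF3 (-0.66, 0.00241), OVOL1 (0.0155) and GATA3 (0.0411) for TGFB added to OSM, and ELF3 for TGFB added to EGF (0.0480) and for PBS versus T0 (0.87, 0.000190). Others were OVOL1 (0.0109) and EHF (0.00114) for the EGF+OSM departure, GRHL3 (0.0161) and TP63 (0.0349) for the OSM+TGFB departure, GATA3 for OSM added to EGF (0.0418), and GRHL1 (0.0498) and EHF (0.00267) for OSM added to EGF+TGFB. Of the differences between TGFB effects, GRHL1 (0.0177) and TP63 (0.0355) gained a call against EGF, and EHF (0.0199) against the effect alone. GRHL2, with at most 6 counts in a library, was not among the values above, and the cause of its low counts was not tested.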
